A study of Gallus gallus with 54 samples.

Results

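FOS, FOSL2, JUN, JUND, MAFF and ATF3, which encode transcription factors of the AP-1 group and its relatives, were followed across every group of a study of eye growth in the chick. They were chosen by gene symbol, and each symbol had 1 entry in the deposited table, so the group is 6 of 24599 gene names. All 6 passed the filter on low counts that left 15746 genes for testing. Retinal RNA of male White Leghorn chicks was sequenced in 54 libraries. They form 14 groups of 4, with 3 libraries only in the 4 h recovery group and the 24 h untreated group. Each time point, 4 h and 24 h, had untreated birds of matched age and birds with FDM (form-deprivation myopia), whose vision was blurred by a translucent diffuser, a treatment that makes the eye grow too long. In 4 further conditions FDM was combined with atropine, pirenzepine, ADTN or TPMPA injected into the eye. Recovery birds wore the diffuser for 3 days, and their retinas were collected 4 or 24 h after its removal. Atropine and pirenzepine block muscarinic acetylcholine receptors, ADTN activates dopamine receptors, and TPMPA blocks the GABA receptors formed by rho subunits. The labels give post-hatch day 7 for every 4 h group and day 8 for every 24 h group, recovery included. For recovery birds these ages are hard to square with 3 days of wear and the 6 days of raising that the labels give. Recovery birds may therefore differ in age from the groups they are compared with. Drug birds of the 24 h groups were injected again 4 h before collection, so their retinas were also taken 4 h after a dose. No group that received vehicle alone was analysed here, so each drug contrast with FDM is drug and injection together. The sources used here do not say that each library came from a different bird, and p-values measure the spread between these samples.

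AP-1 is not a single protein but a pair. Proteins of the Fos family (FOS, and FOSL2, also called Fra-2) have a leucine zipper that cannot pair with itself, so they bind DNA only with a partner, usually a Jun protein, while JUN and JUND can also pair with themselves or each other. FOS is the classic gene switched on within minutes by depolarisation and growth signals, and its transcript is short-lived, which is why neuroscience uses it as a mark of recent activity; FOSL2 is induced more slowly. JUN is moderately inducible and JUND is the steadily expressed member. MAFF is a small Maf protein that has a DNA-binding zipper but no activation domain, and ATF3 is a stress-induced factor of the CREB/ATF family that pairs with Jun proteins. In the retina, neurons of the inner layers are known to change their immediate early genes with the visual image.

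The genes lie in galGal5 as follows. FOS (ENSGALG00000028037) spans 38264804 to 38267713 of chromosome 5, forward strand. FOSL2 (ENSGALG00000010036) spans 27455227 to 27465411 of chromosome 3, reverse strand, and ATF3 (ENSGALG00000025887) 21874342 to 21876244 of the same chromosome, also reverse. JUN (ENSGALG00000010870) spans 26451075 to 26452782 of chromosome 8, reverse strand. JUND (ENSGALG00000043641) spans 3991326 to 3992297 of chromosome 28, forward strand, and MAFF (ENSGALG00000012277) 51010583 to 51013540 of chromosome 1, reverse strand. JUN lies inside the span of FGGY (26429535 to 26708604), a gene on the opposite strand. The kit marks strand, but no source used here says that the authors counted by strand, so reads of the pair may not be told apart.

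Library totals ran from 7.4 to 24.8 M counts with a median of 14.8 M. A single library held between 61 and 2501 counts of FOS, 23 and 461 of FOSL2, 442 and 1933 of JUN, 264 and 1264 of JUND, 131 and 1230 of MAFF, and 22 and 252 of ATF3. Values below are CPM (counts scaled to a common library total, with TMM factors), and differences are log2 changes ± SE. A gene is called where its adjusted p from edgeR's quasi-likelihood test, over all 15746 genes, is under 0.05. Markers of photoreceptors, bipolar, amacrine, horizontal and ganglion cells and Mueller glia were found in every library, as retina should give. Pigment epithelium was carried along to a varying degree, with RPE65 between 31.9 and 499 CPM. A score of 11 blood vessel and pecten genes ran from 1.17 to 5.10 (mean log2 CPM), and CDH5, TIE1, CLDN5, VWF and ERG reached 0 in some libraries. Small structural RNAs summed to between 86.0 and 361 CPM. In whole tissue, fewer cells of a type and less RNA per cell cannot be told apart.

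The 6 genes fell into a mobile and a steady set. Per kilobase of transcript, JUND had the highest level (median of the 14 group means 49.7 CPM per kb), then JUN (38.9), MAFF (15.9), FOS (12.6) and ATF3 (7.12), with FOSL2 between these last. Between groups the order of movement was another one. The highest group mean of FOS was 9.61 times its lowest, against 4.57 times for FOSL2, 3.47 for ATF3, 2.49 for MAFF, 1.57 for JUND and 1.5 for JUN. The highest FOS mean was set largely by 1 TPMPA library at 4 h (210 CPM, group median 51.7). Those of ATF3 and MAFF were in untreated retina at 4 h, where libraries 1 and 3 stood apart (below). Within groups FOS, FOSL2 and ATF3 were also the noisiest. Their SD between libraries of a group (log2 CPM) was 0.50, 0.53 and 0.56, above that of 92.9%, 93.8% and 94.4% of 13075 genes of at least 2 CPM, whose median was 0.19. MAFF stood at 0.29, JUND at 0.21 and JUN at 0.18, and for these a change of the same size is measured with less error.

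**Figure D1:**
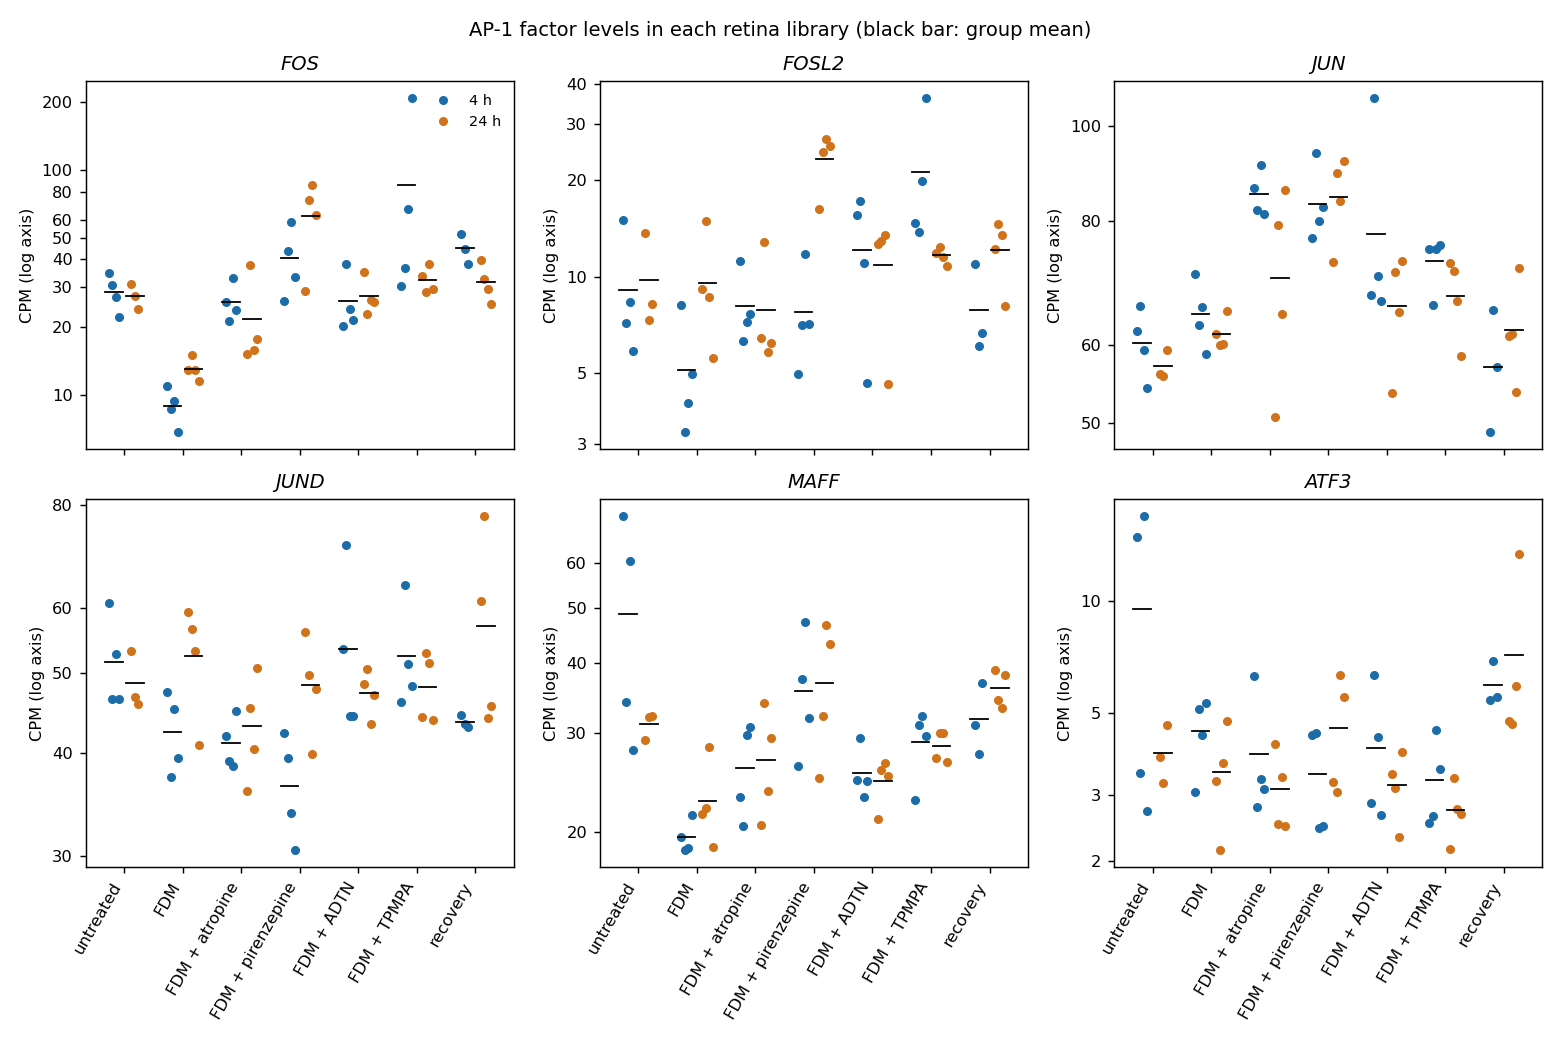
Level of each gene in every library (CPM, log axis, each panel with its own range), by condition, at 4 h (blue) and 24 h (orange); a point is a library and a black bar the mean of its group. FOS is lowest in both FDM groups, where no library exceeds 15.1 CPM, and highest in 1 TPMPA library at 4 h (210 CPM).

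Against the whole table the counts of called genes were as follows. At 4 h, 2 of the 6 genes fell in FDM against untreated retina (FOS and MAFF), where 0.171% of all genes fell. FOS alone rose with atropine (0.934% of all genes rose) and with ADTN (0.419%), FOS and MAFF rose with pirenzepine (1.39%), and FOS and FOSL2 rose with TPMPA (0.413%), each against FDM. In recovery against FDM, FOS rose (0.311%). At 24 h, 2 of 6 rose with pirenzepine, FOS and JUN (1.23% of all genes). With only 6 genes, any single call is a larger share than each of these percentages, so the comparison of shares could not come out otherwise. The genes were also named with results of these data known. Comparisons without a called member are given below. All comparisons with FDM at one time share the same 4 FDM libraries, so they are not independent of each other. In each of the 12 comparisons that involve FDM the FOS libraries of the groups did not overlap. In the direction of FOS, the share of all genes without overlap was 4.07% for atropine, 4.19% for pirenzepine, 3.09% for ADTN, 3.35% for TPMPA and 4.88% for recovery against FDM at 4 h. At 24 h these shares were 3.66%, 4.17%, 2.47%, 4.78% and 4.05% in the same order.

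No member was called in 7 comparisons. In recovery against untreated at 4 h, where 0.0381% of all genes were called, 1 member had an unadjusted p under 0.05, and at 24 h (0.654%) 1 member had. At 24 h, FDM against untreated and TPMPA against FDM called no gene at all (0%) with edgeR. Unadjusted, 1136 and 1844 genes and 2 and 1 members had p under 0.05. DESeq2 called 21 genes higher and 7 lower in the former and 19 higher and 22 lower in the latter, and limma voom called 0 in both. Atropine (0.0953% of genes called), ADTN (0.0381%) and recovery (1.17%) against FDM at 24 h had 0, 1 and 3 members at an unadjusted p under 0.05. Among the 6 genes DESeq2 called FOS and MAFF in recovery against FDM at 24 h and none in the other 6 of these comparisons, and limma voom called none in the 7.

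**Figure D2:**
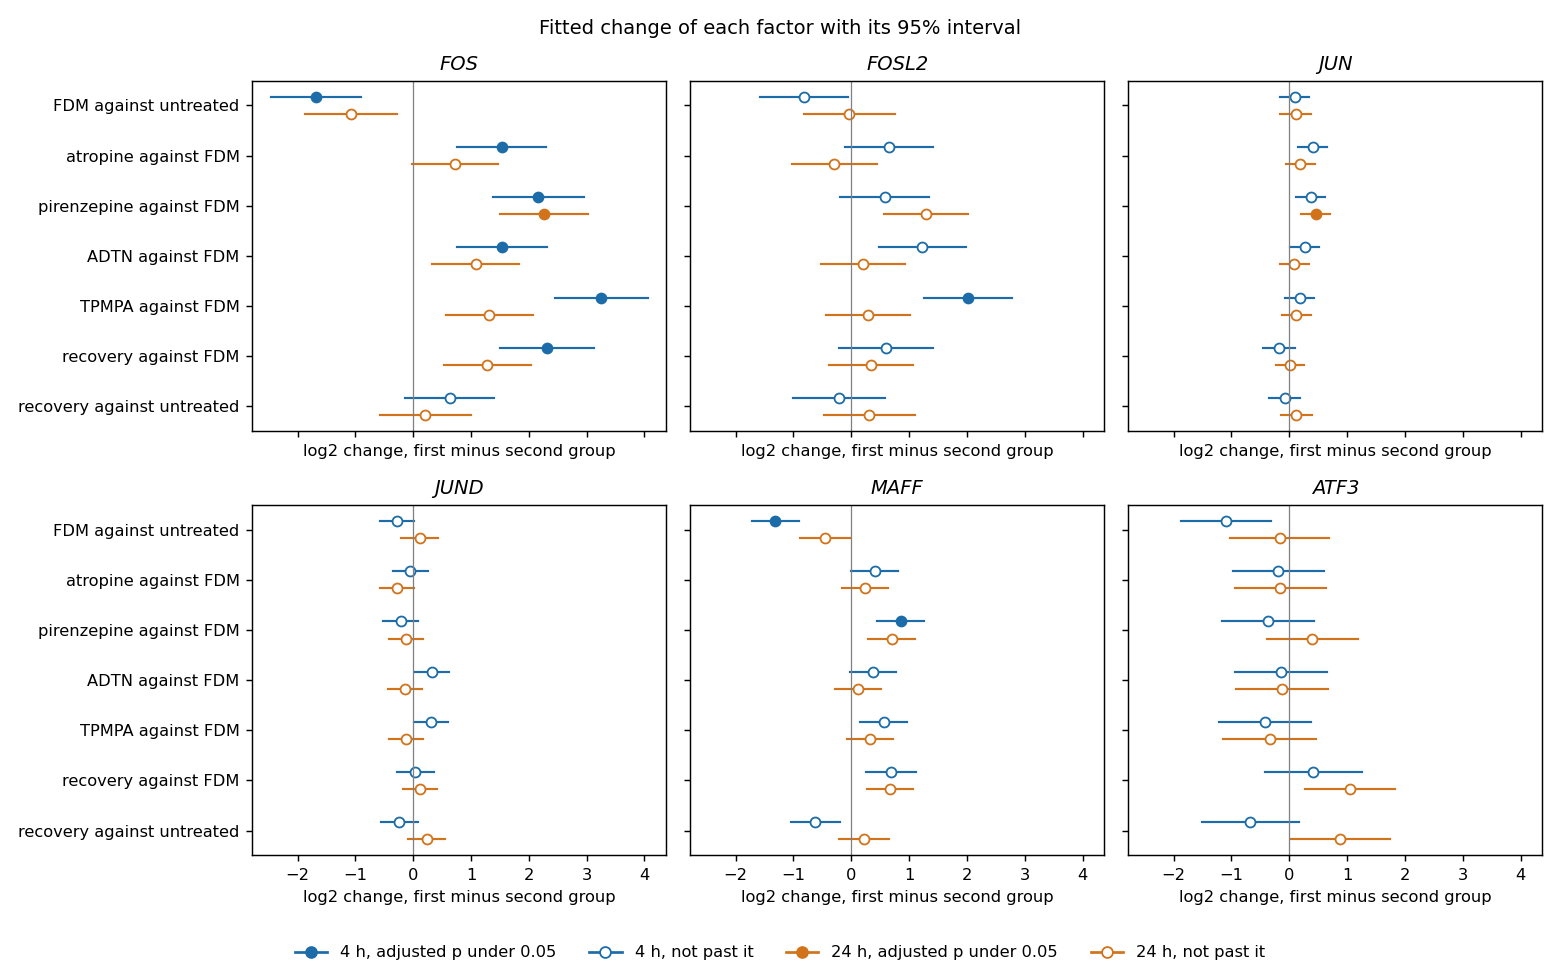
Fitted log2 change of each gene (first group minus second) in the 14 main comparisons, with its 95% interval; filled points passed the threshold over all genes, open points did not. FOS lies below 0 in FDM against untreated and above 0 in every drug or recovery group against FDM, while the intervals of JUN and JUND stay within 1 log2 unit of 0.

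Mean FOS was lower in FDM than in any other condition at both times. At 4 h the untreated libraries held 34.8, 30.8, 27.2 and 22.2 CPM, and the FDM libraries 10.96, 8.66, 9.32 and 6.80. The groups did not overlap, as was so for 2.15% of all genes in that direction. FOS fell by 1.68 ± 0.39 on the log2 scale (adjusted p = 0.048), from a mean of 28.7 ± 5.35 CPM (SD) to 8.93 ± 1.72. The call sat at the threshold: it was lost without untreated library 1 (adjusted p = 0.296), 2 (0.0758) or 3 (0.138) and without FDM library 1 (0.0542), 2 (0.214), 3 (0.166) or 4 (0.25), although the change itself stayed between -1.80 and -1.57. Without both untreated libraries 1 and 3, which stood apart for MAFF and ATF3 (below), the change of FOS was -1.57 ± 0.45 (adjusted p = 0.952).

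At 24 h the untreated libraries held 31.1, 27.4 and 23.9 CPM of FOS and the FDM libraries 12.8, 15.1, 12.8 and 11.5. These groups did not overlap either, as was so for 4.25% of all genes in that direction, and the change was -1.08 ± 0.39 (95% interval -1.87 to -0.28, adjusted p = 0.591). It passed the threshold only in a fit of these 2 groups alone (adjusted p = 0.017). The vessel score separated the same groups, at 1.17 to 1.28 in untreated and 3.40 to 4.73 in FDM libraries, and with the score as a term the change of FOS was -0.80 ± 0.45. The change at 24 h minus that at 4 h was 0.60 ± 0.55 (adjusted p = 0.747).

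Each injected drug stood above FDM in FOS at 4 h. Markers of other cells differed between the same groups. Summed red blood cell genes (3 of 5 tested) were at 0.261 to 2.39 CPM in FDM, 5.70 to 55.1 with atropine and 7.12 to 49.0 with TPMPA, without overlap, and at 0.561 to 16.6 with pirenzepine and 2.13 to 29.96 with ADTN. Summed horizontal cell markers (5 of 5) were at 533 to 651 CPM in FDM and lower without overlap with atropine (473 to 519.9), pirenzepine (437 to 503) and ADTN (476 to 519), but not with TPMPA (546 to 612). Their part in the FOS differences was not tested. The atropine libraries held 25.8, 21.2, 32.9 and 23.9 CPM. All lay above all FDM libraries and within or near the untreated range; FOS rose by 1.53 ± 0.39 against FDM (adjusted p = 0.0305), and the difference from untreated was -0.15 (95% interval -0.88 to 0.57). This call was lost without FDM library 2 (0.1), 3 (0.0875) or 4 (0.137), without atropine library 1 (0.0726) or 3 (0.084), and with limma voom (0.199). The ADTN libraries held 20.3, 38.2, 24.1 and 21.6 CPM. Their rise of 1.53 ± 0.39 (adjusted p = 0.0414) was lost without FDM library 2 (0.153), 3 (0.136) or 4 (0.172) or ADTN library 1 (0.0762), 2 (0.198) or 3 (0.077). The vessel score was 3.39 to 5.05 in ADTN libraries against 1.26 to 3.67 in FDM, and with it as a term the change was 1.72 ± 0.41 (adjusted p = 0.0867).

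Only with pirenzepine did the FOS calls against FDM hold in every alternative fit. The FOS calls of TPMPA and recovery at 4 h (below) were also kept without any single library. At 4 h its libraries held 26.1, 43.4, 58.5 and 33.5 CPM, and at 24 h 29.0, 73.3, 85.3 and 62.9. At both times the lowest pirenzepine library lay above the highest FDM library. FOS rose by 2.17 ± 0.39 at 4 h (adjusted p = 0.000786) and by 2.27 ± 0.38 at 24 h (adjusted p = 0.000225), and both calls held in every alternative that was run, including each left-out library (adjusted p up to 0.00789 and 0.00218). The difference between the times was 0.10 (95% interval -0.96 to 1.17). Against untreated retina FOS stood higher by 0.49 ± 0.36 at 4 h (adjusted p = 0.567) and 1.19 ± 0.40 at 24 h (adjusted p = 0.131), neither past the threshold.

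TPMPA at 4 h held the single highest FOS value of the study and the widest spread. Its libraries held 30.4, 36.5, 67.0 and 210 CPM, so the mean of 85.9 ± 84.0 was set largely by library 4. The median, 51.7 CPM, was below that of pirenzepine at 24 h, 68.1. FOS rose by 3.25 ± 0.40 against FDM (adjusted p = 4.92e-06). Without library 4 the rise was 2.32 on the log2 scale (adjusted p = 2.56e-05), and without libraries 3 and 4 it was 1.90 ± 0.31 (adjusted p = 0.00144). The call was lost only when the spread was estimated from these 2 groups alone (adjusted p = 0.231). Library 4 was as extreme in EGR1, another activity-induced transcription factor, at 415 CPM where the lowest TPMPA library held 49.7.

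At 24 h the TPMPA libraries held 33.8, 28.5, 38.1 and 29.5 CPM of FOS, all above the FDM range. The change from FDM was 1.32 ± 0.37 (adjusted p = 0.202). It was smaller than that at 4 h by 1.93 ± 0.53 on the log2 scale, a difference that did not pass the threshold (adjusted p = 0.217). Of 36 tests of a change between the times, 6 contrasts for each of 6 genes, 0 passed it with edgeR, DESeq2 or limma voom, and 8, 9 and 4 had an unadjusted p under 0.05. Of all genes 0.0635% passed for recovery against untreated and 0% for the other contrasts.

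Between drugs at 4 h, FOS was lower with atropine than with TPMPA by 1.72 ± 0.36 and lower with ADTN than with TPMPA by 1.72 ± 0.36 (adjusted p = 0.0207 and 0.025). Of all genes 0.0889% and 0.108% were lower in these contrasts. Both rested on TPMPA library 4. Without it the differences were -0.79 and -0.78 (adjusted p = 0.259 and 0.473), and they were also lost without atropine library 1 (0.0714), 2 (0.0963) or 4 (0.105) and without ADTN library 1 (0.129), 3 (0.137) or 4 (0.0802).

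At 4 h after removal of the diffuser FOS lay above the FDM and the untreated range, but only the difference from FDM was called. Recovery birds had worn the diffuser for 3 days, and the FDM groups are labelled 4 h and 24 h. Recovery against FDM may therefore also differ in length of wear. The recovery libraries held 51.6, 44.6 and 38.0 CPM, with no overlap with FDM or with untreated retina; 3.95% of all genes were higher than untreated without overlap. FOS rose by 2.32 ± 0.41 against FDM (adjusted p = 0.00326), a call kept without any single library (up to 0.0288) and lost with limma voom (0.0777). Against untreated retina the difference was 0.64 ± 0.38 (95% interval -0.13 to 1.40, adjusted p = 0.797). At 24 h recovery held 39.8, 32.6, 29.4 and 25.3 CPM, above every FDM library and overlapping with untreated. The change from FDM was 1.29 ± 0.37 (adjusted p = 0.0726; DESeq2 0.0279), and from untreated 0.21 ± 0.39.

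FOS with ADTN and with atropine at 24 h overlapped with untreated retina. ADTN libraries held 35.05, 22.8, 26.2 and 25.9 CPM, and the difference from untreated was 0.00 (95% interval -0.79 to 0.79). Atropine libraries held 15.2, 37.8, 15.7 and 17.7 CPM. Only library 2 reached the untreated range, and the lowest library, 15.23 CPM, was just above the highest of FDM, 15.06. The change from FDM was 0.72 ± 0.37 (adjusted p = 0.393) and that from untreated -0.36 ± 0.39 (95% interval -1.14 to 0.43). FOS was lower with atropine than with pirenzepine by 1.54 on the log2 scale, just outside the threshold (adjusted p = 0.053); without atropine library 2 or pirenzepine library 1 it passed (0.0218 and 0.0117).

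Ordered by mean, FOS ran from TPMPA 4 h through pirenzepine 24 h, recovery 4 h, pirenzepine 4 h, TPMPA 24 h, recovery 24 h, untreated 4 h, ADTN 24 h, untreated 24 h, ADTN 4 h, atropine 4 h and atropine 24 h to FDM 24 h and FDM 4 h. Of the 13 neighbouring pairs in this order 11 overlapped in range. The 2 that did not were atropine 24 h over FDM 24 h, and FDM 24 h over FDM 4 h. For the other 5 genes all 13 neighbours overlapped.

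FOSL2, the slower Fos family member, moved in fewer comparisons. At 4 h the FDM libraries held 8.13, 3.27, 4.04 and 4.97 CPM and the TPMPA libraries 14.7, 13.8, 19.9 and 36.2. The groups did not overlap. FOSL2 rose by 2.03 ± 0.38 (adjusted p = 0.00274), which held without each single library (up to 0.0299) but not without TPMPA libraries 3 and 4 (1.46 ± 0.41, adjusted p = 0.151) or in a fit of the 2 groups alone (0.0887). Untreated libraries held 15.02, 7.14, 8.32 and 5.84 CPM, overlapping with both groups, and FDM stood at -0.82 ± 0.38 against them (adjusted p = 0.664).

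With ADTN at 4 h, FOSL2 stood at 15.6, 17.2, 11.1 and 4.64 CPM. Library 4 fell within the FDM range and the rest lay above it, and the change was 1.23 ± 0.38 (adjusted p = 0.101). It passed the threshold without ADTN library 4 (adjusted p = 0.0197), without FDM library 1 (0.0301) and with DESeq2 (0.0399). Atropine and pirenzepine at 4 h overlapped with FDM, with changes of 0.65 ± 0.38 and 0.58 ± 0.38.

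At 24 h pirenzepine had the highest FOSL2. Its libraries held 16.3, 24.4, 26.8 and 25.6 CPM, the FDM libraries 9.18, 14.9, 8.61 and 5.57, and the untreated libraries 13.7, 7.33 and 8.21. Every pirenzepine library lay above every other library of the 24 h groups. The share of all genes with that pattern was not computed. With pirenzepine at 24 h, 4.17% of all genes stood above FDM alone without overlap, and 5.86% above untreated alone. Against FDM the change was 1.29 ± 0.36, at the threshold (adjusted p = 0.051). It was past it without FDM library 2 (0.0285) or pirenzepine library 1 (0.0264), with DESeq2 (0.017), with limma voom (0.0151) and with the small structural RNA level (0.0171) or the vessel score (0.0233) as a term.

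Within pirenzepine FOSL2 rose from 4 h (4.97, 7.08, 11.8 and 7.09 CPM) to 24 h by 1.60 ± 0.37 (adjusted p = 0.0458; 0.191% of all genes rose, and 4.06% rose without overlap). It was lower with atropine than with pirenzepine at 24 h by 1.58 ± 0.37 (adjusted p = 0.0459; 0.178% of all genes were lower, and 4.6% lower without overlap). Neither call was firm. The former was lost without pirenzepine 4 h library 1 (0.151), 2 (0.291) or 4 (0.0622) or 24 h library 1 (0.0748), 2 (0.144) or 3 (0.0878). The latter was lost without atropine library 1 (0.157), 3 (0.203) or 4 (0.16) or pirenzepine library 2 (0.131), 3 (0.147) or 4 (0.0726). Small structural RNAs were at 106 to 131 CPM in pirenzepine at 4 h, 124 to 282 at 24 h and 98.5 to 124 in atropine at 24 h. With their level as a term the adjusted p were 0.2 and 0.215.

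At 4 h FOSL2 was lower with pirenzepine than with TPMPA by 1.45 ± 0.36 (adjusted p = 0.0213), and JUND was also lower there (2 of 6 members, where 2.71% of all genes were lower and 5.92% lower without overlap). For FOSL2 the call was lost without pirenzepine library 1 (0.0518) or 2 (0.0903) or TPMPA library 4 (0.0927). FOSL2 with atropine at 4 h (6.30 to 11.2 CPM) also lay below TPMPA (13.8 to 36.2 CPM) without overlap. That difference was not called, and the share of all genes with such a separation is not given here. Over the 54 libraries, the deviation of FOSL2 from its group mean went with that of small structural RNAs (Pearson r = 0.47) and JUND did the same (r = 0.47), against -0.06 for FOS and -0.12 for JUN. These are descriptions over libraries that share depth and preparation.

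JUN, the main partner of FOS, was called in few comparisons, all of them of atropine or pirenzepine. At 4 h the atropine libraries held 86.4, 82.1, 91.2 and 81.3 CPM, the pirenzepine libraries 76.9, 93.8, 80.1 and 82.7, the FDM libraries 70.8, 62.7, 65.6 and 58.6 and the untreated libraries 61.9, 65.7, 59.2 and 54.2. Neither drug group overlapped with FDM or untreated retina; against untreated 3.52% and 3.93% of all genes were higher without overlap. Against untreated, JUN rose by 0.50 ± 0.12 with atropine (adjusted p = 0.0275; 0.61% of all genes rose) and by 0.47 ± 0.12 with pirenzepine (adjusted p = 0.0393; 0.838%). Against FDM the changes were 0.40 ± 0.12 (adjusted p = 0.102) and 0.37 ± 0.12 (adjusted p = 0.113). ADTN and TPMPA also stood above untreated without overlap, by 0.37 ± 0.12 and 0.27 ± 0.12 (adjusted p = 0.184 and 0.462; 2.58% and 2.43% of all genes). All 4 drugs were compared with the same untreated libraries. Against ADTN, JUN differed by 0.13 with atropine (95% interval -0.11 to 0.38) and by 0.10 with pirenzepine (-0.15 to 0.35). ADTN library 2 held 106.8 CPM of JUN and the others 66.5 to 70.5. Both muscarinic antagonists stood above TPMPA (65.8 to 75.8 CPM) without overlap, and neither difference was called. The shares of all genes that did so are not given here. Whether the rise of JUN is particular to the muscarinic antagonists was not tested.

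These calls of JUN were small and sensitive to single libraries. With atropine the call was lost without untreated library 1 (0.0829), 3 (0.0966) or 4 (0.0931) or atropine library 1 (0.0786) or 3 (0.102). With pirenzepine it was lost without untreated library 1 (0.0815), 3 (0.112) or 4 (0.0976) or pirenzepine library 2 (0.201), 3 (0.0545) or 4 (0.0723). Without both untreated libraries 1 and 3 the adjusted p of JUN were 0.353 and 0.299. Over the fits that left out a library the changes lay between 0.41 and 0.55. Markers of pigment epithelium and pigment cells, 9 genes summed, were at 356 to 621 CPM in untreated, 178 to 1139 in FDM, 537 to 1306 in atropine and 290 to 1110 in pirenzepine libraries at 4 h; their part in the result was not tested.

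At 24 h JUN was highest with pirenzepine. The libraries held 72.8, 89.6, 83.9 and 92.2 CPM, against 61.4, 59.9, 60.1 and 64.8 in FDM and 56.0, 55.8 and 59.2 in untreated retina. Neither pair overlapped, and against untreated 5.86% of all genes were higher without overlap. JUN rose by 0.46 ± 0.12 against FDM (adjusted p = 0.0385) and by 0.57 ± 0.14 against untreated (adjusted p = 0.0166; 0.965% of all genes rose). Against FDM it was lost without FDM library 1 (0.101), 2 (0.118) or 3 (0.11) or pirenzepine library 2 (0.132), 3 (0.0779) or 4 (0.162). Against untreated it was lost without untreated library 1 (0.0681), 2 (0.0958) or 3 (0.0707) or pirenzepine library 2 (0.0611) or 4 (0.0563). Atropine at 24 h was spread over 50.7, 79.3, 64.5 and 86.2 CPM, which covers the FDM range, with a change of 0.19 ± 0.12 (adjusted p = 0.522).

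Under the diffuser JUN did not follow FOS. FDM stood at 0.10 ± 0.12 against untreated at 4 h (95% interval -0.15 to 0.35) and at 0.11 ± 0.14 at 24 h (-0.16 to 0.38), where its libraries lay just above the untreated ones without overlap, as did 4.76% of all genes. In recovery JUN was at 48.9, 65.1 and 56.9 CPM at 4 h, and the change from FDM was -0.18 ± 0.14. At these intervals the fitted change of FOS in the same contrast lies outside the interval of JUN in all 3.

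JUND, the other Jun partner, was called in no main comparison. It ran from a group mean of 36.5 ± 5.34 CPM with pirenzepine at 4 h to 57.2 ± 15.7 in recovery at 24 h. Against FDM the drug changes at 4 h were -0.05 ± 0.15 with atropine, -0.22 ± 0.15 with pirenzepine, 0.33 ± 0.15 with ADTN and 0.30 ± 0.15 with TPMPA. Pirenzepine libraries held 42.3, 39.5, 33.9 and 30.5 CPM, ADTN libraries 53.6, 71.7, 44.4 and 44.4 and TPMPA libraries 46.1, 64.1, 51.3 and 48.3. Atropine libraries, at 38.6 to 45.0 CPM, overlapped with ADTN and lay below TPMPA without overlap. Untreated libraries held 46.5 to 60.9 CPM, above atropine, pirenzepine and recovery (43.0 to 44.5) without overlap. For atropine below TPMPA and for these groups below untreated, the share of all genes without overlap is not given here. Against untreated, atropine stood at -0.33 ± 0.15 and pirenzepine at -0.50 ± 0.15 (adjusted p = 0.451 and 0.0782). Pirenzepine did not overlap with ADTN or TPMPA. It was lower than ADTN by 0.55 ± 0.15 (adjusted p = 0.042; 1.09% of all genes were lower, and 4.85% lower without overlap) and lower than TPMPA by 0.52 ± 0.15 (adjusted p = 0.033).

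Neither difference of JUND was firm. Without ADTN library 1 or 2 (0.122 and 0.176) or pirenzepine library 2, 3 or 4 (0.0979, 0.0774 and 0.0833) the former was lost, and the latter without pirenzepine library 2, 3 or 4 (0.0903, 0.0718 and 0.0852) or TPMPA library 2 or 3 (0.16 and 0.0581). Small structural RNAs were at 106 to 131 CPM in pirenzepine libraries, 87.3 to 216 in ADTN and 114 to 289 in TPMPA. With their level as a term the adjusted p were 0.0648 and 0.105.

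Because Fos proteins need a partner, the level of Fos family over Jun family transcripts, (FOS + FOSL2) over (JUN + JUND) in CPM per kb, was computed in each library. Its median was 0.239 in untreated retina at 4 h (0.201 to 0.315) and 0.104 in FDM (0.0963 to 0.147), which did not overlap. At 24 h its median was 0.245 in untreated retina (0.2345 to 0.3203) and 0.160 in FDM (0.1362 to 0.2374), which overlapped. It was 0.419 with TPMPA at 4 h (0.293 to 1.39), 0.316 in recovery at 4 h (0.308 to 0.463) and 0.545 with pirenzepine at 24 h (0.298 to 0.731). By this measure JUN and JUND together exceeded FOS and FOSL2 together in every library but 1, TPMPA library 4 at 4 h. Other members of the families, such as FOSB, were left out, and values per kb depend on the annotated transcript lengths. The ratio is of transcripts, its numerator moves mainly with FOS, and it adds no test to those above.

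**Figure D3:**
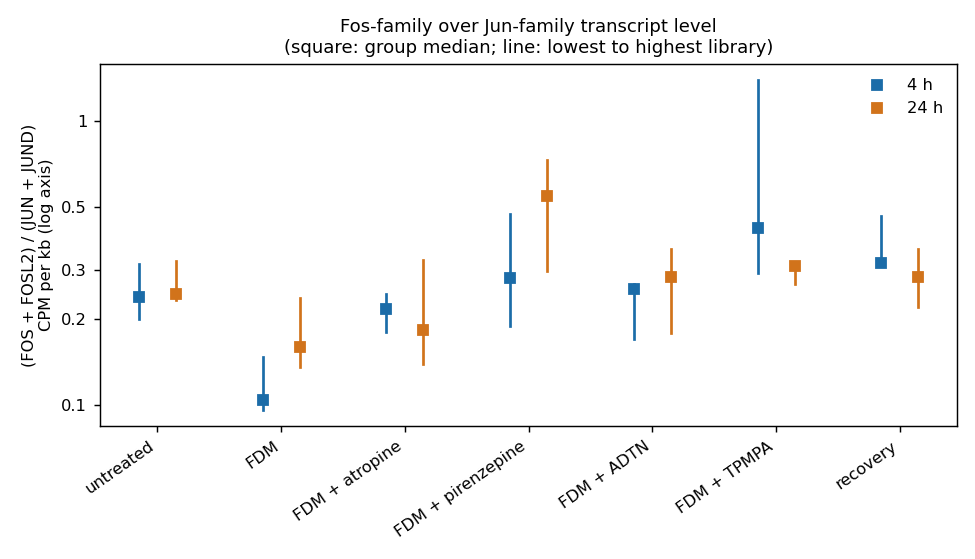
Fos family over Jun family transcript level (CPM per kb, log axis) by condition at 4 h and 24 h; squares are group medians and lines run from the lowest to the highest library. The medians of the FDM groups are lowest, at 0.104 and 0.160, although FDM overlaps with untreated retina at 24 h. A single TPMPA library passes 1.

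MAFF fell under the diffuser at 4 h, and its untreated libraries were unequal. At 4 h the untreated libraries held 72.8, 34.0, 60.5 and 28.0 CPM and the FDM libraries 19.6, 18.6, 18.8 and 21.4. The FDM libraries were close together and all below the untreated ones, which fell into a high pair (1 and 3) and a low pair (2 and 4). MAFF fell by 1.32 ± 0.20 on the log2 scale (adjusted p = 0.000524), a call kept without any single library (up to 0.0208). Without both libraries 1 and 3 the change was -0.67 ± 0.20 (adjusted p = 0.952), and in a fit of the 2 groups alone the adjusted p was 0.433. The same 2 untreated libraries were high in ATF3 (14.8 and 16.9 CPM, against 3.44 and 2.72) and in CEBPB (36.5 and 30.5 CPM, against 3.70 and 3.84), a stress and nutrient responsive factor.

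At 24 h the untreated libraries held 29.2, 32.0 and 32.1 CPM of MAFF, near the low pair of 4 h, and the FDM libraries 21.6, 22.1, 28.3 and 18.8. These did not overlap; the change was -0.45 ± 0.21 (adjusted p = 0.682). With pirenzepine at 4 h MAFF held 26.2, 37.4, 47.2 and 31.9 CPM, above all FDM libraries. It rose by 0.86 ± 0.20 (adjusted p = 0.0119), lost without pirenzepine library 3 (0.0662) and with limma voom (0.0702). At 24 h pirenzepine libraries held 25.0, 32.2, 46.6 and 43.2 CPM. Library 1 lay within the FDM range, and the change was 0.70 ± 0.20 (adjusted p = 0.0564), past the threshold without pirenzepine library 1 (0.0103) or FDM library 3 (0.0407).

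In recovery MAFF stood above FDM at both times without passing the test. Recovery libraries held 31.1, 27.5 and 36.7 CPM at 4 h and 38.8, 34.4, 33.3 and 38.0 at 24 h. Neither group overlapped with FDM, and the changes were 0.70 ± 0.22 (adjusted p = 0.171) and 0.67 ± 0.20 (adjusted p = 0.0809; DESeq2 0.0453). Atropine, ADTN and TPMPA at 4 h stood at 0.40 ± 0.20, 0.38 ± 0.20 and 0.56 ± 0.20 against FDM (adjusted p = 0.429, 0.378 and 0.183).

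Against untreated retina at 4 h MAFF was lower with atropine by 0.91 ± 0.20 (adjusted p = 0.00827; 0.222% of all genes were lower) and with ADTN by 0.94 ± 0.20 (adjusted p = 0.016; 0.4%). The atropine libraries held 23.1, 20.6, 29.7 and 30.8 CPM and the ADTN libraries 24.7, 29.4, 23.1 and 24.7, and both groups overlapped with the low pair of untreated libraries. Without untreated libraries 1 and 3 the changes were -0.27 and -0.29 (adjusted p = 1 and 0.683). The calls were also lost without atropine library 2 (0.0557), without ADTN library 1 (0.0645) or 3 (0.0694), and without untreated library 1 alone (0.149 and 0.121) or 3 alone (0.068 and 0.117).

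ATF3 was the least abundant of the 6, and its calls rested on the same pair of untreated libraries. FDM at 4 h held 3.06, 5.11, 4.37 and 5.32 CPM, all below the high untreated pair and with library 1 inside the range of the low pair, with a change of -1.09 ± 0.39 (adjusted p = 0.446) that changed sign to 0.51 ± 0.40 without untreated libraries 1 and 3. With pirenzepine at 4 h it held 4.35, 4.40, 2.45 and 2.49 CPM. ATF3 was lower than in untreated retina by 1.46 ± 0.39 (adjusted p = 0.0434; 0.476% of all genes were lower). Without untreated libraries 1 and 3 that change was 0.14 ± 0.39, on the other side of 0 (adjusted p = 0.965). The call was also lost without untreated library 1 (0.234) or 3 (0.301) alone or pirenzepine library 2 (0.0752), 3 (0.119) or 4 (0.13). In recovery at 24 h ATF3 held 4.74, 4.67, 5.89 and 13.3 CPM, set largely by library 4, with a change of 1.05 ± 0.39 against FDM (adjusted p = 0.194).

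Other members of the basic leucine zipper family were read as a list of 27 genes, of which 19 could be tested. In FDM at 4 h 2 fell: CEBPB by 3.16 ± 0.64 (adjusted p = 0.0259) and MAFG, a sister gene of MAFF, by 0.42 ± 0.09 (adjusted p = 0.0295). Both calls ended without untreated library 1 (0.264 and 0.303) or 3 (0.117 and 0.162), without FDM library 3 (0.121 and 0.105) or 4 (0.15 and 0.198), for CEBPB without FDM library 2 (0.107) and for MAFG without FDM library 1 (0.0652). The median change of the list was -0.18, against -0.01 for all genes.

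Several relatives rose in the comparisons of the muscarinic antagonists with FDM. NFE2L2, a stress-response factor that pairs with small Maf proteins, rose by 0.66 ± 0.13 with atropine and 0.77 ± 0.13 with pirenzepine at 4 h (adjusted p = 0.00429 and 0.000459) and by 0.88 ± 0.13 with pirenzepine at 24 h (adjusted p = 5.85e-05), and these calls were kept without any single library. CREM, a factor of the cyclic AMP response, rose with pirenzepine by 1.13 ± 0.20 at 4 h and 1.28 ± 0.20 at 24 h (adjusted p = 0.000786 and 0.000108), kept likewise. MAFK, another small Maf, rose with pirenzepine at 24 h by 0.49 ± 0.10 (adjusted p = 0.00453). In all, 2 of 19 rose with atropine (0.934% of all genes) and 4 with pirenzepine (1.39%) at 4 h, and 1 (0.0953%) and 5 (1.23%) at 24 h.

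FOSB, a Fos family member whose product accumulates with repeated stimulation in mammals, was scarce. At 24 h its FDM libraries held 0, 0.284, 0.233 and 0.237 CPM and its pirenzepine libraries 0.335, 3.47, 8.62 and 5.06. It rose by 4.48 ± 1.03 on the log2 scale (adjusted p = 0.00972), a size that depends on very low FDM values, and the call was lost without FDM library 1 (0.0563) or pirenzepine library 3 (0.0544). Pirenzepine library 1, the lowest, was also the lowest of its group in FOS, FOSL2, JUN and MAFF. It had the highest vessel score (5.02) and small structural RNA level (282 CPM) of the group, and their part in these values was not tested. At 4 h pirenzepine library 1 was likewise the lowest of its group in FOS, FOSL2, JUN, MAFF and FOSB. There its vessel score was 1.56 (group 1.40 to 2.44) and its small structural RNA level 125 CPM (group 106 to 131). JUND was highest in library 1 at both times, and ATF3 was not lowest in it at either. Whether libraries of this number share a source was not tested.

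Immediate early genes outside AP-1 were a list of 37, of which 29 could be tested. DUSP4, a phosphatase that restrains MAP kinases, fell in FDM at 4 h by 1.43 ± 0.24 and rose with TPMPA by 1.46 ± 0.24 and in recovery by 1.72 ± 0.25 against FDM. All 3 calls were kept without any single library (adjusted p = 0.00134, 0.00027 and 0.000189). NR4A1, an orphan nuclear receptor, rose with TPMPA by 1.77 ± 0.24 and in recovery by 1.54 ± 0.25 (adjusted p = 1.82e-05 and 0.000878). EGR1 rose at 4 h with pirenzepine by 2.04 ± 0.44 and with TPMPA by 2.82 ± 0.45 (adjusted p = 0.00611 and 0.00027), the latter becoming 1.63 without TPMPA library 4 (adjusted p = 0.011). In recovery against FDM at 4 h EGR1 rose by 2.42 ± 0.46 (adjusted p = 0.00824). Of the 29, 4 fell in FDM at 4 h, where 0.171% of all genes fell. Against FDM at 4 h, 4 rose with pirenzepine (1.39% of all genes), 1 with ADTN, DUSP6 (0.419%), 8 with TPMPA (0.413%) and 5 in recovery (0.311%). With atropine at 4 h, where FOS was called, 0 of the 29 were called with edgeR or limma voom and 1 with DESeq2, and 9, 9 and 10 had an unadjusted p under 0.05. At 24 h 4 rose with pirenzepine (1.23% of all genes) and 2, EGR1 and DUSP4, in recovery (1.17% called in either direction), where FOS was not called.

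Genes that sit upstream and downstream of AP-1 were read as a list each. Among 21 of 31 kinases and SRF or CREB cofactors that could be tested, ELK3, a partner of the serum response factor, rose with atropine by 2.02 ± 0.41 (adjusted p = 0.00446) and with pirenzepine by 1.60 ± 0.41 (adjusted p = 0.024) at 4 h. The pirenzepine call of ELK3 was lost without any of the 4 FDM libraries (0.0557, 0.0679, 0.055 and 0.0913) and without pirenzepine library 2 (0.114) or 4 (0.0534), and the atropine call was kept. Of 15 testable genes known in mammals to carry AP-1 or cyclic AMP response sites, the peptide genes VIP and SST rose with both drugs at 4 h. With atropine both calls ended without FDM library 3 (0.104 for VIP and 0.0539 for SST), and that of VIP also without FDM library 4 (0.0992) or atropine library 3 (0.119). VIP rose by 1.30 ± 0.23 with pirenzepine at 4 h, 1.70 ± 0.23 with pirenzepine at 24 h and 1.52 ± 0.23 with TPMPA at 4 h (adjusted p = 0.000767, 4.84e-05 and 0.000126), kept without any single library. At 24 h 4 of the 15 rose with pirenzepine, where 1.23% of all genes rose: VIP, SST by 2.32 ± 0.51, the adhesion receptor CD44 by 1.31 ± 0.33 and SCG2, a secretory granule protein, by 0.40 ± 0.11 (adjusted p = 0.0056, 0.0203 and 0.0314 for the last 3). SST was kept without any single library. CD44 was lost without FDM library 1 (0.0718), 2 (0.109) or 3 (0.11) or pirenzepine library 2 (0.117) or 4 (0.0707). SCG2 was lost without FDM library 1 (0.109), 2 (0.0793) or 4 (0.0805) or pirenzepine library 2 (0.114), 3 (0.11) or 4 (0.111).

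FOS and VIP parted in range with ADTN, and by a narrow margin with atropine at 24 h. VIP stood at 15.3 ± 2.29 CPM with ADTN at 4 h and 15.7 ± 3.10 at 24 h, against 16.96 ± 3.11 and 17.1 ± 3.30 in FDM, with overlap at both times. FOS with ADTN overlapped with untreated retina at both times and with FDM at neither, and its change from FDM was called at 4 h only. With atropine at 24 h VIP, at 15.2 to 25.0 CPM, overlapped with FDM (12.6 to 20.2). FOS in that atropine group overlapped with untreated retina and not with FDM, and its change from FDM was not called. The overlap with untreated retina came from library 2 alone (37.8 CPM). The lowest atropine library, 15.23 CPM, was just above the highest of FDM, 15.06. EGR1 with ADTN was at 47.0 ± 12.9 CPM at 4 h and 73.2 ± 38.3 at 24 h, against 21.7 ± 1.61 and 28.1 ± 8.79 in FDM.

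The genes most like each member were found by Pearson correlation among 10125 symbols of at least 2 CPM, as a description without a test. Over the 14 group means FOS was most like TIPARP (0.87), EGR1, PACAP and ZYX (each 0.86) and PCSK1 (0.82); PACAP is a neuropeptide, and PCSK1 cuts neuropeptide precursors. Over the deviations of the 54 libraries from their group means it was most like NR4A3 (0.69), SLC13A5 (0.65), EGR1 (0.64), FOSL2 (0.62) and UTS2B (0.61). The point of TPMPA library 4 at 4 h lies far from the others in the plot of FOS and EGR1 deviations, at 1.736 and 2.002. The correlation without it was not computed. FOSL2 was most like MCAM (0.93) over group means, and IGF1R, PIM3 and IGFBP5 (each 0.79) over libraries.

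MAFF and ATF3 had other neighbours than FOS. Over libraries MAFF was most like SLC7A3 (0.80), a cationic amino acid transporter, YARS (0.77), a transfer RNA synthetase, CEBPB (0.75), EIF2B (0.70) and ASNS (0.68), which makes asparagine. ATF3 was most like MYC (0.72), EIF2B (0.63), XBP1 and PSAT1 (each 0.62), and over group means like CTH (0.83) and SLC38A2 (0.81). Among the 6 members the pairs most alike were FOS and FOSL2 (0.73 over group means, 0.62 over libraries), FOS and MAFF (0.65 and 0.44) and MAFF and ATF3 (0.56 and 0.43). The last pair leans on the unequal untreated libraries at 4 h. Their deviations were 0.683, -0.411, 0.418 and -0.69 for MAFF and 1.068, -0.999, 1.255 and -1.324 for ATF3. That group also had the highest mean of each gene. The same libraries deviated in CEBPB by 1.68, -1.578, 1.421 and -1.524, so the likeness of MAFF and CEBPB leans on them too. Neither correlation was computed without that group. JUN and JUND ran at -0.38 over group means and 0.28 over libraries. JUN was most like WWTR1 (0.96), SDC1 (0.95) and OCA2, HEBP1 and HPX (each 0.94) over group means, and JUND like SOWAHC (0.93). OCA2 is among the 9 pigment cell markers summed above, and no other of them was among these neighbours of JUN. The 9 summed to 522 to 1232 CPM in recovery at 4 h, lowest in mean JUN, and to 537 to 1306 in atropine at 4 h, highest in mean JUN. No correlation of this sum with JUN was computed, and the part of pigment cells in JUN was not tested.

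**Figure D4:**
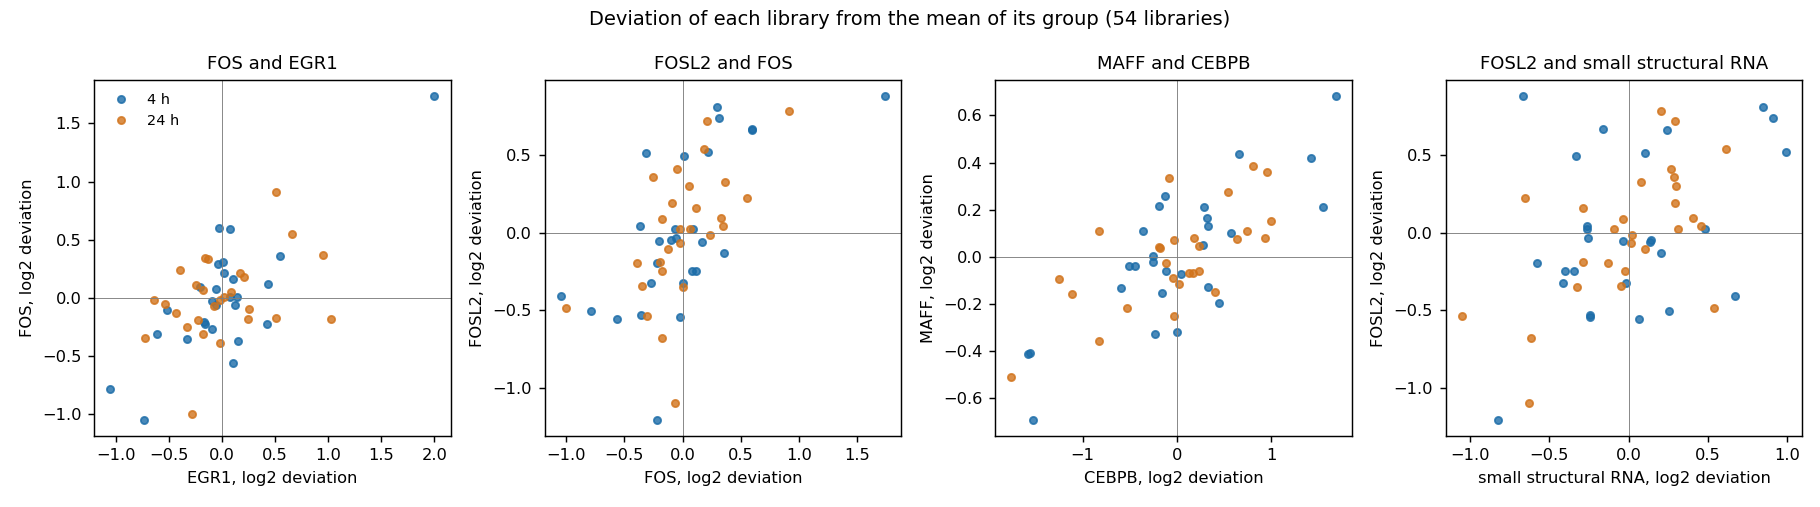
Deviation of each of the 54 libraries from the mean of its group (log2 CPM) for 4 pairs: FOS and EGR1, FOSL2 and FOS, MAFF and CEBPB, and FOSL2 and small structural RNAs; blue points are 4 h and orange 24 h. Pearson r is 0.64, 0.62, 0.75 and 0.47 in that order, and the isolated point at the upper right of the first pair is TPMPA library 4 at 4 h. In the pair of MAFF and CEBPB the untreated libraries at 4 h lie near both ends.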

How the data were processed

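Total RNA of whole retina (Trizol) was made into stranded libraries and read in pairs on a NextSeq 500, per the labels' protocols. Per the submitters' processing notes, the build was galGal5 and the tools included HISAT2 2.1, Trimmomatic 0.36, limma, HOMER and edgeR; no source used here gives their roles or order. The authors deposited raw counts for 38118 transcript entries and 54 libraries, with lengths and coordinates, which are in bases (another unit, used to place genes and for values per kb). For each of 24599 gene names the entry with the largest summed count was used.

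Counts were filtered with filterByExpr (minimum count 10, minimum total 15), which left 15746 genes, given TMM factors and modelled in R 4.3.3 with edgeR 4.0.16 (glmQLFit with robust set, glmQLFTest), in a single model of 14 groups with 40 residual degrees of freedom. P-values are two-sided and adjusted by Benjamini-Hochberg over all tested genes, and called under 0.05 at any fold. SE was obtained from the F statistic as the size of the log2 change over its square root. Of 47 contrasts 14 are main. Intervals are 95%. The fit was checked on counts simulated from its own fitted means and dispersions. That check cannot show the effect of outlying libraries or of sharing by replicate number. No 2 libraries held identical counts. Total counts of 7.4 to 24.8 M set the precision of each value; CPM values are given per library, and intervals cover spread between libraries.

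The members and gene lists were chosen with earlier results of these data known. Named genes are the 6 members in every comparison, up to 4 called genes per list and comparison by smallest adjusted p, the 5 most correlated genes by each measure, and EGR1 and VIP. Alternatives were RLE scaling, no filter, DESeq2 1.42.0, limma 3.58.1 voom, a fit of only the groups compared, a replicate block, counts summed over entries, small structural RNA level, vessel score or library total as a term, and leaving out each library. Library total, voom, leaving out 2 libraries together, and left-out fits of secondary contrasts and list genes were added after seeing the data. No sequences are printed, as none was used here.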

Additional observations from a re-analysis of the deposited data

Results flagged for a closer look

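Single libraries stood apart from the rest of their group in 7 of 72 sets of 4 libraries and 1 gene. A library was flagged where its gap to the nearest other took up most of the group's range in CPM. About 1 in 20 sets would be flagged by chance if values were normal and independent, but the 6 genes share libraries. The rule looks for 1 library at a time. It flagged neither TPMPA 4 h library 4 for FOS nor untreated 4 h libraries 1 and 3. FOS was 37.8 CPM in atropine 24 h library 2, with the others between 15.2 and 17.7, and FOSL2 was 12.9 in the same library, with the others between 5.83 and 6.45. FOSL2 was 4.62 CPM in ADTN 24 h library 4, where the others held 12.6 to 13.4. That library also had the lowest vessel score of its group, 1.21, and the lowest small structural RNA level, 115 CPM. JUN was 106.8 CPM in ADTN 4 h library 2, above 66.5 to 70.5 in the others, and 65.75 in TPMPA 4 h library 2, below 74.9 to 75.8. ATF3 was 6.26 CPM in atropine 4 h library 1 (others 2.78 to 3.33) and 13.34 in recovery 24 h library 4 (others 4.67 to 5.89). Their part in the results was not tested beyond the fits without each library.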

How the results depend on the processing

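Counts of the 6 members called were compared under every alternative. Scaling by RLE, summing entries and the small structural RNA term left each main count of calls as it was or within 1.5 times. In FDM against untreated at 4 h the count of 2 became 1 with limma voom, with no filter, with only the groups compared and with the replicate block, 0 without untreated libraries 1 and 3, and 1 to 2 over left-out libraries. For atropine against FDM at 4 h 1 became 0 with voom, 2 with only the groups compared, and 0 to 1 with left-out libraries. Pirenzepine at 4 h went from 2 to 1 with voom and 1 to 2 with left-out libraries. ADTN at 4 h went from 1 to 2 with DESeq2, 0 with voom, no filter or the vessel score, and 0 to 2 with left-out libraries. TPMPA at 4 h went from 2 to 0 with only the groups compared and 1 without TPMPA libraries 3 and 4. Recovery against FDM went from 1 to 0 with voom at 4 h, and from 0 to 2 with DESeq2 and 1 with only the groups compared at 24 h. FDM against untreated and TPMPA against FDM at 24 h went from 0 to 1 with only the groups compared. Pirenzepine at 24 h went from 2 to 4 with DESeq2 or the replicate block, 1 with the library total as a term, and 1 to 4 with left-out libraries. The cause was not tested. Without untreated libraries 1 and 3, the ATF3 change from untreated at 4 h turned positive in FDM (0.51), recovery (0.92) and all 4 drugs (0.08 to 0.37), of which only that of pirenzepine (0.14) had been called. Uncalled changes of FOSL2 (recovery, atropine and pirenzepine) and MAFF (recovery and pirenzepine) from untreated also changed sign.

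Replicate numbers were not treated as pairs, since no label ties them. The correlations below cannot exclude that libraries of a number share a source of variation. Same-numbered libraries of a time had a median correlation of deviations of 0.041 over 156 pairs (-0.351 to 0.536, 58 over 0.1), against -0.009 over 468 pairs of other numbers (128 over 0.1). As a hint from the data, 23 of 54 libraries correlated best with their own number, so some sharing by number may exist. No rate expected by chance was computed. FOS itself fell with each step in replicate number in the untreated and recovery groups at each time, and in no FDM or drug group. Small structural RNAs were highest in library 1 of untreated, FDM and recovery at both times, TPMPA at 4 h and pirenzepine at 24 h. In the remaining groups library 1 was not the highest. In untreated retina at 4 h library 1 held 232 CPM of them and the others 102 to 109. FOSL2 was highest in library 1 of untreated, FDM, atropine and recovery at 4 h and of untreated at 24 h, and of no other group. The causes of these orders were not tested. Under the replicate block FOS in FDM against untreated at 4 h had adjusted p = 0.0702, and FOSL2 and MAFF in pirenzepine against FDM at 24 h 0.0331 and 0.0465. Low counts of ATF3 and FOSL2, down to 22 and 23 in a library, limit what could be detected.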
